A study of Rattus norvegicus with 22 samples.

Results

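The levels of 10 macrophage genes were followed through germ cell fractions of the rat testis. The genes are Lyz2, Cd74, C1qa, C1qb, C1qc, Mrc1, Cd68, Csf1r, Ptprc and Cd163. Probes were taken by the RefSeq accession that the array gives each of them, which yielded 12 probes for these 10 genes, of 30330 probes and 15150 named genes in all. Ptprc and Csf1r had 2 probes each, and the brighter one was used.

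The samples were 22 one-colour arrays of RNA from male rats that were gavaged on 6 days of each week for 4 weeks. Round spermatids came from rats given 6 mg/kg cyclophosphamide, an alkylating anticancer drug (n = 6 arrays), or saline (n = 6). Pachytene spermatocytes came from rats given the same dose of cyclophosphamide (n = 5) or saline (n = 5). Pachytene spermatocytes are large cells in meiotic prophase, and round spermatids are the smaller haploid cells that follow. Both were separated by sedimentation at unit gravity (STA-PUT), which sorts cells by size and density and uses no surface marker. Each array carries a rat number and was taken as 1 rat. In cyclophosphamide pachytene spermatocytes 2 arrays carry rat number 16 (labelled 16-2011 and 16-2012). The labels do not say whether these are the same rat, so the group may hold 4 rats in place of 5. With either array left out, 9 of the genes below still passed between cell types and 0 between treatments. The strain, the age and the purity of the fractions are not given in the sources used here.

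Macrophages live in the interstitial space around the seminiferous tubules and on the tubule wall, outside the epithelium that holds the germ cells. They are known there for ties to Leydig cells and to the spermatogonial stem cell niche. They take up debris through scavenger and lectin receptors (Cd163, Mrc1) and digest it in lysosomes (Lyz2, Cd68). They also present peptides on MHC class II (Cd74), secrete complement C1q, and depend on the CSF1 receptor (Csf1r).

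C1qa, C1qb and C1qc lie side by side on chromosome 5, within 17.66 kb (154402276 to 154419933 on GRCr8). Their levels moved together between arrays, with Lyz2 close to them. The upstream sequences of C1qa, C1qb and Lyz2 are shown for that reason, and that of Cd68 because its level on 1 array stood apart from theirs. RefSeq's promoter table for GRCr8 held 9 of the 10 genes and had no entry for C1qc. Each sequence runs 5′ to 3′ on the gene's strand, which is the minus strand for each of them, and ends where the annotated gene begins. C1qa spans chr5:154419934-154420183, C1qb chr5:154407828-154408077, Lyz2 chr7:54798061-54798261 and Cd68 chr10:54882442-54882691. Capitals mark GAGGAA or GGAAGT on either strand (TTCCTC or ACTTCC when read on the other), letters found in sites of the myeloid transcription factor PU.1. They were chosen with these sequences in view.
C1qa: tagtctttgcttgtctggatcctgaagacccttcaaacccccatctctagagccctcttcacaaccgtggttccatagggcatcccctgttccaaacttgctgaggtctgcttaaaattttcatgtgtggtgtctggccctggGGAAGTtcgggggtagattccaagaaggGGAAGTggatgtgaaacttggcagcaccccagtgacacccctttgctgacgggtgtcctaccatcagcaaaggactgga
C1qb: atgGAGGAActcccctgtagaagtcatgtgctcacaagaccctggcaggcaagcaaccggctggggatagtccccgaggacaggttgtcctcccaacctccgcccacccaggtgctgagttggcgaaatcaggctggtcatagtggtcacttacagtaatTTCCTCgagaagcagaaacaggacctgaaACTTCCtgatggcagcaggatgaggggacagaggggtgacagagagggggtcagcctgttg
Lyz2: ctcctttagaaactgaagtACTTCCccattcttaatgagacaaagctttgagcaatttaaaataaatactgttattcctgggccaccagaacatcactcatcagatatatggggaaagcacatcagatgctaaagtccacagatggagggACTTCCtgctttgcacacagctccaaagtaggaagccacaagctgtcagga
Cd68: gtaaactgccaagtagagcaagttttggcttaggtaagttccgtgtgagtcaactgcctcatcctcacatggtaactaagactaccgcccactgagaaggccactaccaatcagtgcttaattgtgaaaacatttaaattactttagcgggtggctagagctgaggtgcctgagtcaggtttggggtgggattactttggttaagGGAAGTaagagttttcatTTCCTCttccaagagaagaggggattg
In the 250 bases before the table's start site, 8 of the 9 genes held at least 1 of the pair, against 36.7% of 33469 promoters. GAGGAA was present in 7 of the 9 genes and in 23.3% of all promoters. For Lyz2 the printed sequence holds 201 of the 250 bases, and its GAGGAA match is not within them. GGAAGT was present in 6 of the 9 genes and in 19.2% of all promoters. Cd163 had neither. Mrc1, which did not follow the C1q genes between round spermatid arrays, held both. A match describes letters in these windows and is no measurement of binding.

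Levels are on the log2 scale relative to each array, with 0 at the 75th percentile of its probes. That percentile lay at 1069.5 to 2423.3 intensity units. Between 65.33% and 76.37% of an array's probes gave signals well above background, with 0 saturated spots. Within a group, pairs of arrays correlated at 0.9814 to 0.9914. The fractions differed in the markers they are named for. All 13 round spermatid markers tested were higher in the round spermatid fraction of saline rats, and H1f6, the linker histone of meiotic cells, was 74.5-fold lower there (95% interval 55.1 to 101). Sertoli, Leydig and peritubular myoid transcripts were also measured in both fractions.

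**Figure D1:**
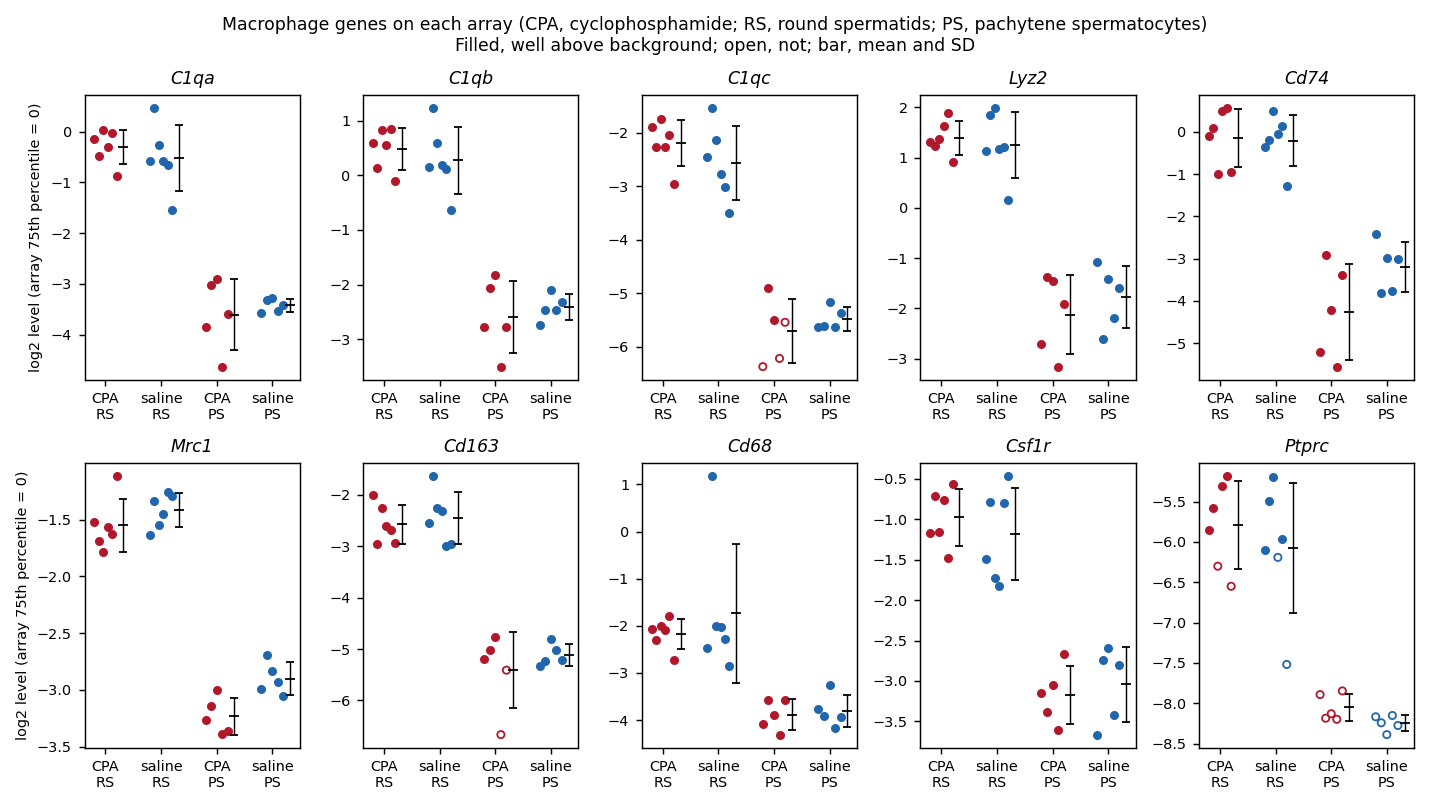
Level of each gene on each array (y axis, log2 relative to the array's 75th percentile) in the 4 groups (x axis). Filled points were well above background, open points were not, and the bar gives mean and SD. In the 10 panels the round spermatid arrays lie above the pachytene arrays, with Ptprc open on every pachytene array and Cd68 at 1.18 on a single saline round spermatid array.

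Between the cell types the macrophage genes were higher in round spermatids. The test was possible for 9 of the 10, and 9 of these 9 were higher in round spermatids than in pachytene spermatocytes, in cyclophosphamide rats as well as in saline rats. The rise ran from 3.21-fold (Mrc1) to 17.3-fold (Cd74) after cyclophosphamide and from 2.79-fold (Mrc1) to 8.15-fold (Lyz2) after saline. The background was broad. In cyclophosphamide rats 38.8% of 19332 genes tested were higher and 27.1% were higher by over 2-fold. In saline rats 38.3% of 19401 genes tested were higher and 25.3% were higher by over 2-fold. All 9 genes rose by over 2-fold in both treatments. After cyclophosphamide 2 of them, C1qc and Cd163, entered the test through their round spermatid arrays alone. The median log2 difference of these 9 was 3.08 after cyclophosphamide and 2.69 after saline, beside -0.021 and 0.011 over all genes tested. Which cells these transcripts came from was not tested. If they came from macrophages, more macrophages and more RNA per macrophage cannot be told apart in such samples.

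The 3 chains of C1q, the recognition molecule that starts the classical complement pathway, had nearly the same difference. C1qa ranged over -0.87, -0.22 and 0.024 (lowest, median and highest level) in round spermatids of cyclophosphamide rats, and over -1.55, -0.58 and 0.47 in those of saline rats. Its levels in pachytene spermatocytes of cyclophosphamide rats were -3.86, -3.02, -2.91, -4.63 and -3.60, and in those of saline rats they were -3.57, -3.31, -3.27, -3.54 and -3.43. No round spermatid array came down to the level of any pachytene array, while the treatments overlapped within each cell type. C1qa was 9.88-fold higher in round spermatids after cyclophosphamide (95% interval 6.53 to 15.0; limma adjusted p = 4.51e-10). After saline it was 7.45-fold higher (95% interval 4.92 to 11.3; limma adjusted p = 5.37e-09). C1qb was 8.44-fold and C1qc 11.4-fold higher after cyclophosphamide, against 6.47-fold and 7.58-fold after saline. C1qc was well above background on 2 of 5 pachytene arrays of cyclophosphamide rats and on all arrays of the other groups.

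Lyz2 encodes lysozyme M, which cleaves bacterial cell walls and is abundant in phagocytes. Its levels spanned 0.92, 1.34 and 1.90 (lowest, median and highest) in round spermatids of cyclophosphamide rats, and 0.16, 1.20 and 1.99 in those of saline rats. In pachytene spermatocytes its levels were -2.71, -1.38, -1.45, -3.16 and -1.91 after cyclophosphamide, and -1.07, -2.60, -1.41, -2.19 and -1.58 after saline. All 12 round spermatid arrays were above 0 and all 10 pachytene arrays below it. The rise was 11.4-fold after cyclophosphamide (95% interval 7.00 to 18.7) and 8.15-fold after saline (95% interval 4.99 to 13.3), with limma adjusted p of 2.75e-09 and 4e-08.

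Cd74 is the invariant chain, which escorts MHC class II molecules to the compartment where they are loaded with peptide. Its level had a lowest, median and highest value of -1.003, -0.0039 and 0.57 in round spermatids of cyclophosphamide rats, and of -1.29, -0.13 and 0.51 in those of saline rats. In pachytene spermatocytes it was -5.22, -2.92, -4.21, -5.56 and -3.40 after cyclophosphamide, and -2.42, -3.81, -2.99, -3.78 and -3.01 after saline. The cyclophosphamide pachytene arrays had the widest spread of any group for this gene (SD 1.13). The difference between cell types was 17.3-fold after cyclophosphamide (95% interval 9.34 to 32.2) and 7.96-fold after saline (95% interval 4.29 to 14.8), with limma adjusted p of 9.27e-09 and 1.52e-06.

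The receptors Cd163 and Mrc1 differed in size of effect. Cd163, which takes up haemoglobin bound to haptoglobin, was 7.14-fold higher after cyclophosphamide (log2 2.84 ± 0.28, SE) and 6.34-fold higher after saline (log2 2.66 ± 0.28, SE). Its levels spanned -2.96, -2.65 and -2.01 (lowest, median and highest) in round spermatids of cyclophosphamide rats, and -2.997, -2.43 and -1.63 in those of saline rats. In pachytene spermatocytes they were -5.20, -5.03, -4.77, -6.66 and -5.41 after cyclophosphamide, and -5.32, -5.23, -4.80, -5.02 and -5.21 after saline. The saline pachytene arrays lay close together and the cyclophosphamide ones were spread by 1 low array. Cd163 was well above background on 3 of 5 cyclophosphamide pachytene arrays and on all arrays of the other groups. Mrc1, the mannose receptor, showed a smaller and tighter rise. Its levels spanned -1.78 to -1.11 in round spermatids of cyclophosphamide rats and -1.64 to -1.26 in those of saline rats. In pachytene spermatocytes they were -3.26, -3.14, -2.9995, -3.39 and -3.36 after cyclophosphamide, and -2.99, -2.69, -2.83, -2.93 and -3.06 after saline. The difference was 3.21-fold after cyclophosphamide (95% interval 2.71 to 3.80) and 2.79-fold after saline (95% interval 2.36 to 3.31), with limma adjusted p of 1.1e-11 and 1.42e-10.

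Cd68, a glycoprotein of lysosomal membranes, was 3.28-fold higher in round spermatids after cyclophosphamide (95% interval 1.70 to 6.32; limma adjusted p = 0.00169). After saline it was 4.19-fold higher (95% interval 2.17 to 8.09; limma adjusted p = 0.000312). Its level in round spermatids of cyclophosphamide rats had a lowest, median and highest value of -2.74, -2.08 and -1.80. In pachytene spermatocytes it was -4.07, -3.57, -3.88, -4.31 and -3.57 after cyclophosphamide, and -3.76, -3.92, -3.25, -4.16 and -3.93 after saline. The dimmest round spermatid array was still above the brightest pachytene array. The saline value leans on rat 16, whose round spermatid level was 1.18, while the other 5 arrays of its group lay between -2.85 and -2.001. Without that array the log2 difference was 1.48 ± 0.20 (SE), against 2.07 ± 0.46 with it, and it still passed (limma adjusted p = 1.02e-06). Both Cd68 spots of the array were bright. The spot in row 377 read 3834 intensity units, and that in row 143 read 3529, was marked as non-uniform and was left out. On the authors' deposited table, whose log2 values are centred within each cell type, Cd68 also stood at 3.26 on this array and between -0.76 and 0.25 on the 11 other round spermatid arrays. On the same array 84 probes, of 21380 well above background, exceeded every other round spermatid array by more than 2 on the log2 scale. The like count, taken within each cell type, was 5 to 41 on the other 21 arrays.

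Csf1r, the receptor for the growth factors CSF1 and IL34, was 4.59-fold higher after cyclophosphamide (95% interval 3.17 to 6.62) and 3.63-fold higher after saline (95% interval 2.51 to 5.25), with limma adjusted p of 5.28e-08 and 8.03e-07. Its levels had a lowest, median and highest value of -1.48, -0.96 and -0.56 in round spermatids of cyclophosphamide rats, and of -1.82, -1.15 and -0.46 in those of saline rats. In pachytene spermatocytes they were -3.15, -3.38, -3.05, -3.61 and -2.66 after cyclophosphamide, and -3.66, -2.75, -2.60, -3.42 and -2.80 after saline. Again the treatments overlapped and the cell types did not. These are values of its brighter probe, which has 1 spot on the array. The second probe, with 2 spots, differed by 1.06 after cyclophosphamide and 0.97 after saline on the log2 scale, against 2.20 and 1.86 for the first.

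Ptprc (CD45), the phosphatase on the surface of all white blood cells, was too dim for the test. Its probe was well above background on 4 of 6 arrays in each round spermatid group and on 0 of 5 in each pachytene group. Its levels spanned -6.55 to -5.18 in round spermatids of cyclophosphamide rats and -7.52 to -5.19 in those of saline rats. In pachytene spermatocytes they lay between -8.20 and -7.85 after cyclophosphamide and between -8.39 and -8.15 after saline. Measured against the lowest signal well above background on each pachytene array, Ptprc was at least 1.20-fold higher in round spermatids after cyclophosphamide and at least 1.19-fold higher after saline. Its second probe was dimmer and was well above background on 0 of 22 arrays.

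**Figure D2:**
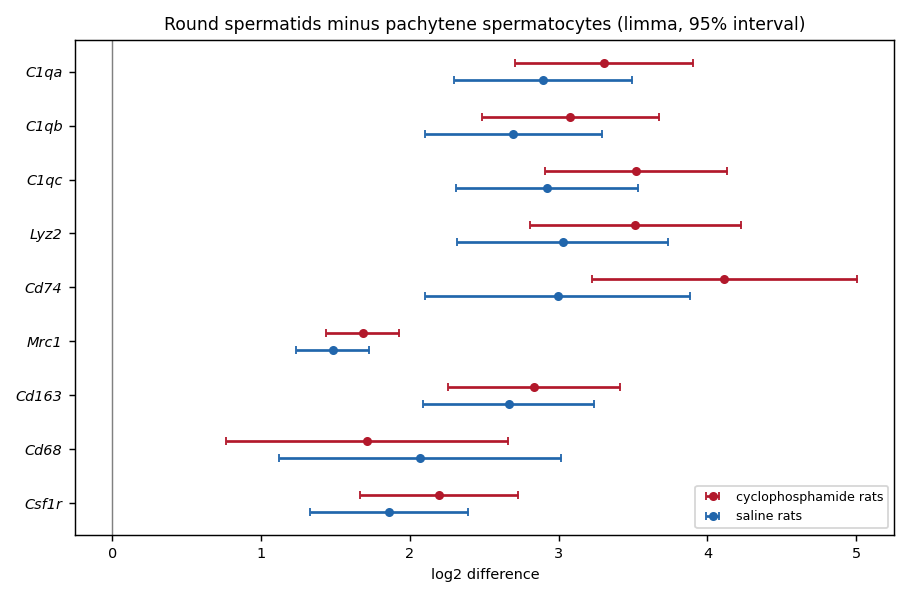
Difference between round spermatids and pachytene spermatocytes (x axis, log2) for each of the 9 genes tested (y axis), with limma's 95% interval, in cyclophosphamide rats and saline rats. Every interval lies above 0, from 1.48 for Mrc1 after saline to 4.11 for Cd74 after cyclophosphamide.

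For the 9 genes tested the groups did not overlap between cell types in either treatment, against 32.5% of genes higher without overlap after cyclophosphamide and 28.7% after saline. In 6 of these 9 genes the order of means was cyclophosphamide round spermatids, saline round spermatids, saline pachytene, cyclophosphamide pachytene. Cd163, Cd68 and Mrc1 had the round spermatid groups the other way round. Between neighbours of the same cell type the groups overlapped for all 9. The arrays were on 4 slides, of which 2 held both cell types. Within slide 1 the median difference was 2.75 after cyclophosphamide and 2.51 after saline, and within slide 2 it was 2.98 and 2.34. Each of these slides held 3 round spermatid arrays but only 1 pachytene array per treatment, so a within-slide test takes the lone array to vary like the others. The 9 genes passed such a test on slide 1. On slide 2 Cd68 missed the threshold, at 1.19 ± 1.35 after cyclophosphamide and 1.93 ± 1.36 after saline (SE; limma adjusted p = 0.463 and 0.252). With background corrected by the normexp method instead, the median differences shrank to 1.84 after cyclophosphamide and 1.59 after saline, and all 9 still passed.

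Other genes of the same biology were taken from 7 lists, which were chosen with earlier results of these data known. Their counts are therefore a description and no independent test. Of the listed genes 136 were not among the 10. In cyclophosphamide rats 95 of these could be tested, and 64 (67.4%) were higher and 17 lower in round spermatids, against 38.8% higher and 40.4% lower over all genes. In saline rats 63 of 94 (67.0%) were higher and 17 lower, against 38.3% and 37.0% over all genes. A gene that entered the test through its round spermatid arrays alone was bound to be higher there. With genes measured in both cell types alone (1 array of each group allowed to miss), a count added after seeing the data, 38 of 67 (56.7%) were higher after cyclophosphamide and 44 of 71 (62.0%) after saline. Over all genes measured in both, 36.1% and 37.0% were higher. The lists differed from each other, as given here for saline rats. With genes measured in both cell types alone, 7 of 7 complement, 4 of 6 MHC class II and 18 of 22 leukocyte signalling genes were higher. So were 5 of 15 lysosomal genes and 4 of 7 of the CSF1 axis and myeloid transcription factors.

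Of the complement genes 8 of 8 tested were higher, with a median log2 difference of 1.98. For 1 of them no pachytene array was well above background, and with that gene at its lower bound the median was 1.78. Cfd (factor D, a protease of the alternative pathway) was 6.14-fold higher and C1s (a protease of the C1 complex) 4.21-fold higher. Of MHC class II and costimulation genes 5 of 7 were higher and 0 lower. The class II chain RT1-Da was 9.71-fold higher, Ctss (cathepsin S, which trims the invariant chain) 7.98-fold, and RT1-DMa (peptide loading) 5.28-fold. RT1-Da was well above background on 3 of 5 pachytene arrays. Leukocyte signalling genes gave 22 of 27 higher and 0 lower. Among them the tetraspanin Cd53 was at least 6.56-fold higher and the tetraspanin Cd37 7.34-fold higher. Csf2rb, the shared chain of the receptors for GM-CSF, IL-3 and IL-5, was 6.88-fold higher, with 2 of 5 pachytene arrays well above background.

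The other 4 lists were mixed. Among scavenger and lectin receptors 6 of 9 were higher and 2 lower. Of the 4 measured in both cell types 3 were higher and 1 lower. Trem2, a lipid sensor of macrophages, was 9.79-fold higher, the galactose lectin Clec10a 9.65-fold higher, and Clec4a at least 2.37-fold higher. Trem2 and Clec10a were each well above background on 3 of 5 pachytene arrays. Among chemokines and cytokines 11 of 18 were higher and 4 lower. However, 8 of these 18 entered the test through round spermatid arrays alone. Of the 10 measured in both cell types 3 were higher and 4 lower. Cxcl2, which draws neutrophils, was 11.9-fold higher, and Ccl3 and Ccl4, which draw monocytes and lymphocytes, were 9.65-fold and at least 7.26-fold higher. In saline pachytene spermatocytes Cxcl2 was well above background on 2 of 5 arrays, Ccl3 on 1 and Ccl4 on 0, so the exact sizes are uncertain. Lysosomal genes were split, with 7 of 17 higher and 8 lower (median -0.43). The glycoprotein Gpnmb was 8.84-fold higher, with 2 of 5 pachytene arrays well above background, while the protease Ctsl was 6.14-fold lower and Psap, the precursor of the saposins, 5.61-fold lower. Of the CSF1 axis and myeloid transcription factors 4 of 8 were higher and 3 lower. Irf5 (6.22-fold) and Runx1 (4.67-fold) were higher.

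**Figure D3:**
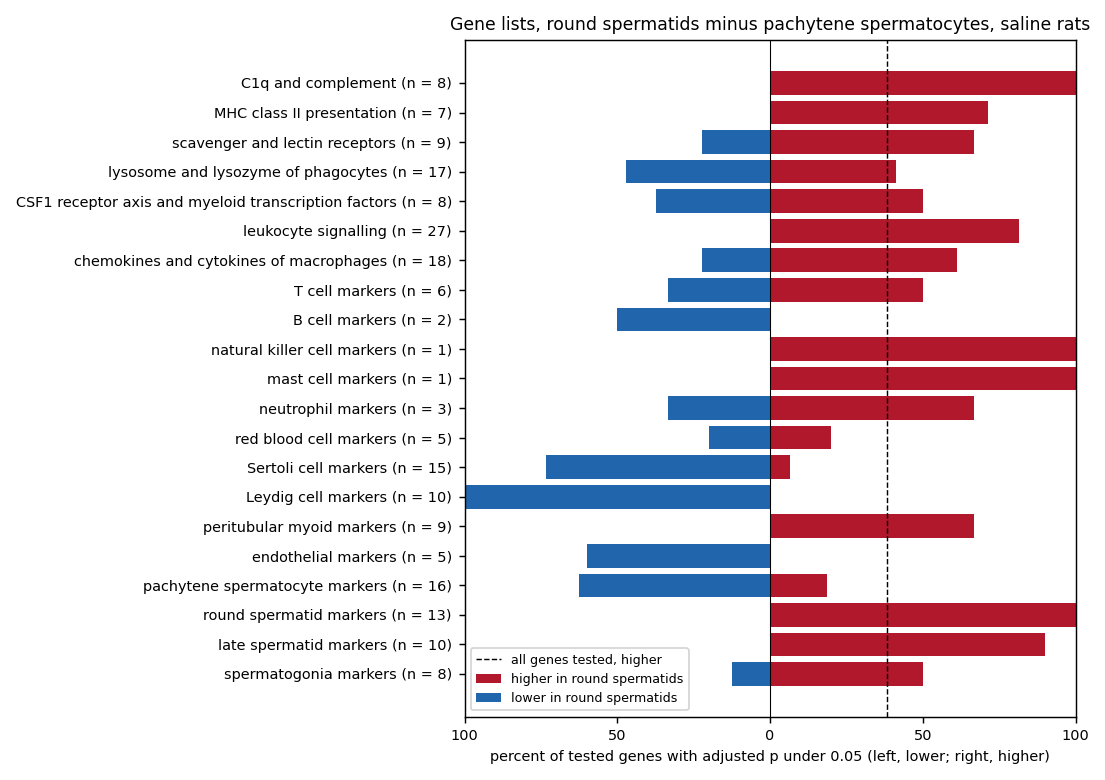
Share of tested genes in each list (y axis, with the number tested) that were higher (red, right) or lower (blue, left) in round spermatids than in pachytene spermatocytes of saline rats, in percent (x axis). The dashed line is the share of all genes tested that were higher, 38.3%. Complement (8 of 8) and leukocyte signalling (22 of 27) lie far right of it, Leydig (10 of 10) and Sertoli markers (11 of 15) on the left. Some genes of these lists entered the test through a single cell type.

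Markers of other cells did not share 1 direction in saline rats, where 37.0% of all genes tested were lower in round spermatids and 38.3% higher. Peritubular myoid markers, genes of the contractile cells of the tubule wall, were higher for 6 of 9 and lower for 0, with Actg2 3.1-fold, Acta2 2.99-fold and Myh11 2.71-fold higher. Leydig markers, of the steroid-producing cells of the interstitium, were lower for 10 of 10, with Ptgds 7.69-fold, Star 5.26-fold and Cyp11a1 4.53-fold lower. Star was well above background on 3 of 6 round spermatid arrays. Of the 7 Leydig genes measured in both cell types 7 were lower, and the others entered the test through pachytene arrays alone. Sertoli markers were lower for 11 of 15 and higher for 1, with Clu 10.3-fold, Gja1 9.97-fold and Fshr 8.99-fold lower. Fshr was well above background on 4 of 6 round spermatid arrays. Of the 13 Sertoli genes measured in both cell types 9 were lower and 1 higher, and the others entered through pachytene arrays alone. Endothelial markers were lower for 3 of 5, with Cldn5 3.33-fold, Kdr 2.24-fold and Pecam1 1.63-fold lower. The summed linear level of the 10 macrophage genes ran from 5.46 to 9.38 in cyclophosphamide round spermatids and from 4.01 to 12.2 in saline round spermatids. The level of 12.2 was on the array of saline rat 16 and includes its outlying Cd68 value. In pachytene spermatocytes the summed level of the macrophage genes ran from 0.516 to 1.24 after cyclophosphamide and from 0.894 to 1.32 after saline. The summed level of the 15 Sertoli genes was 25.9 to 44.1 in cyclophosphamide and 29.4 to 39.9 in saline round spermatids, beside 62.0 to 78.5 and 57.6 to 76.2 in the pachytene groups of the same treatments. The part of any of these cells in the macrophage result was not tested.

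Few markers of other white blood cells were measurable. Of 13 T cell genes 6 could be tested, and 3 were higher and 2 lower in round spermatids of saline rats. Zap70 was 2.77-fold higher, with 1 of 5 pachytene arrays well above background. Cd8a was at least 2.15-fold lower, and Cd8b 1.64-fold lower, with 1 of 6 round spermatid arrays well above background. Cd3e, a chain of the T cell receptor complex, was well above background on 0 of 22 arrays. The B cell gene Pax5 did not pass (limma adjusted p = 0.118). The neutrophil gene S100a9 was at least 2.74-fold higher. Elane was 5.29-fold higher, with 3 of 5 pachytene arrays well above background, and Camp was 1.25-fold lower. Nkg7, of natural killer cells, was 2.78-fold higher and Hdc, of mast cells, 2.38-fold higher, each the single gene of its list that could be tested. Of red blood cell genes Alas2 was 6.54-fold lower and Ahsp 2.75-fold higher, and Hba-a1 did not pass (limma adjusted p = 0.118).

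Germ cell markers differed between the fractions. Late spermatid markers were higher for 9 of 10, with Akap4 6.18-fold, Prm2 5.82-fold and Odf1 5.16-fold higher. The round spermatid genes Txndc2, Tssk6 and Spem1 were 8.64-fold, 6.66-fold and 6.61-fold higher. Pachytene markers were lower for 10 of 16 and higher for 3, with Pou5f2 38.0-fold and Piwil1 20.3-fold lower beside H1f6. Of spermatogonial markers 4 of 8 were higher and 1 lower, with Gfra1 7.12-fold and Zbtb16 at least 2.66-fold higher and Id4 5.61-fold lower.

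Cyclophosphamide did not change any of the 9 tested genes past the threshold. In round spermatids 0 of 9 passed (limma, adjusted p under 0.05), and 0% of 18843 genes did. At an unadjusted p under 0.05 the count was 0 of the 9, beside 366 higher and 260 lower of the 18843 genes. Log2 differences of the 9 ran from -0.43 (Cd68) to 0.37 (C1qc), with 6 above 0 and 3 below. Their median was 0.14 beside -0.0105 over all genes, of which 52.8% lay below 0. The 95% intervals were -0.34 to 0.80 for C1qa, -0.54 to 0.81 for Lyz2, -0.79 to 0.91 for Cd74 and -0.36 to 0.10 for Mrc1. Groups did not overlap for 0.191% of genes and for 0 of these 9. Cd68's difference turned to 0.15 without the array of saline rat 16.

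In pachytene spermatocytes 0 of 9 passed, and 0% of 18450 genes did. All 9 lay below 0, with a median of -0.22, beside 0.034 over all genes, of which 42.9% lay below 0. Cd74 had the largest difference, a log2 value of -1.06 (95% interval -1.99 to -0.13; unadjusted p = 0.0271, limma adjusted p = 0.681). Mrc1 differed by -0.33 (95% interval -0.58 to -0.077; unadjusted p = 0.0129, limma adjusted p = 0.681). For the other 7 the interval held 0, and 2 of the 9 had an unadjusted p under 0.05. Over all 18450 genes 989 were lower and 356 higher at that unadjusted p. Groups did not overlap for 0.623% of genes and overlapped for all 9. Without array 16-2012 the values of C1qa, C1qb, Cd68 and Cd163 turned positive, at 0.0145 to 0.077.

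Round spermatid markers moved in the same direction in this comparison. In pachytene spermatocytes 13 of 13 lay below 0 after cyclophosphamide, with a median of -0.42, 8 of them at an unadjusted p under 0.05 and 0 past the adjusted threshold. Of all 18450 genes tested 42.9% lay below 0, and 989 were lower at that unadjusted p. Late spermatid markers lay below 0 for 9 of 10. The summed level of the 13 round spermatid genes was 40.1 to 55.4 in cyclophosphamide pachytene spermatocytes and 43.0 to 71.4 in saline ones, and their part in the macrophage values was not tested. Within the slides the median of the 9 macrophage genes was 0.28 on slide 1, -0.41 on slide 2, -0.0745 on slide 3 and -0.76 on slide 4, but slides 1 and 2 each set 1 cyclophosphamide array against 1 saline array, slide 3 set 2 against 1, and slide 4 set 1 against 2.

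Of the 136 related genes 0 passed in either cell type. In pachytene spermatocytes the nearest to the threshold were Cebpb, a transcription factor of myeloid cells, at -0.51 ± 0.20, and the complement component C2 at 0.81 ± 0.32 (log2 and SE; limma adjusted p = 0.681 for both). In round spermatids the sialic acid receptor Siglec1 was at 0.57 ± 0.26 (log2 and SE; limma adjusted p = 1).

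**Figure D4:**
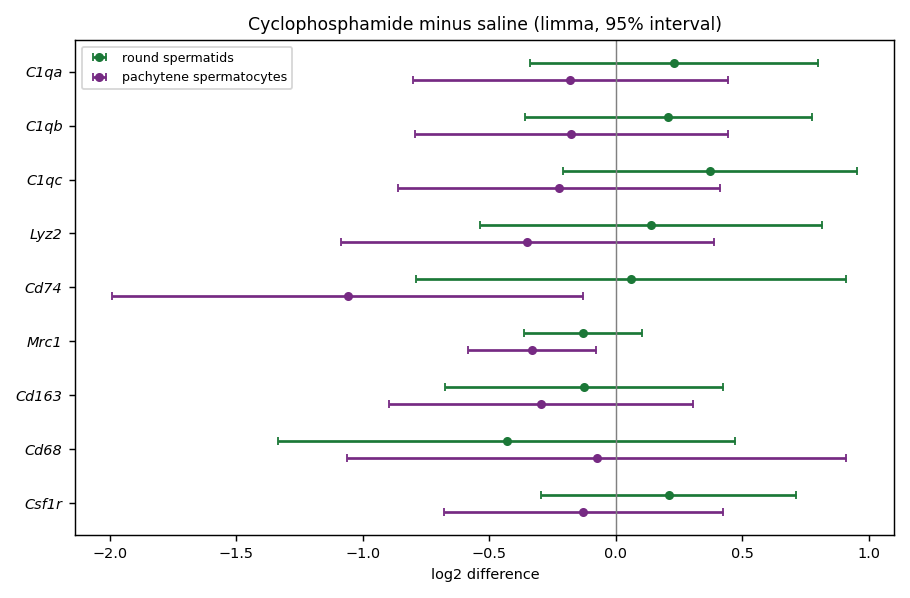
Difference between cyclophosphamide and saline (x axis, log2) for each of the 9 genes tested (y axis), with limma's 95% interval, in round spermatids and in pachytene spermatocytes. In pachytene spermatocytes the 9 points lie left of 0, and the intervals of Cd74 and Mrc1 alone leave 0 out before adjustment over all genes.

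The cell type difference after cyclophosphamide was set against that after saline in the same fit. The count that passed was 0 of 9, and 0% of 19643 genes did. The values were above 0 for 8 of the 9, with a median of 0.38 beside -0.042 over all genes, of which 55.2% lay below 0. Cd74 had the largest, 1.12 (95% interval -0.14 to 2.39; unadjusted p = 0.0794, limma adjusted p = 0.642), and Cd68 was at -0.36. Round spermatid markers were above 0 for 13 of 13, with a median of 0.49, and late spermatid markers for 9 of 10. Their part in the macrophage values was not tested. Among the related genes the nearest to the threshold were Ccl4 at 0.88 ± 0.41 and C1s at 0.51 ± 0.27 (log2 and SE; limma adjusted p = 0.634 and 0.638).

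The macrophage genes varied together between arrays of the same group. The correlation of deviations from the 4 group means, over 22 arrays that share slides and scaling, had a median of 0.50 over the 36 pairs of the 9 genes (range -0.25 to 0.97). In pachytene spermatocytes (10 arrays) 36 of 36 pairs were above 0, with a median of 0.60. In round spermatids (12 arrays) 23 of 36 were, with a median of 0.47. C1qa and C1qb were closest at 0.97, followed by C1qa and C1qc at 0.88; these genes are neighbours on chromosome 5. Cd74 and Lyz2 correlated at 0.84.

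Mrc1 and the used Csf1r probe stood outside that pattern in round spermatids. Set against the mean of the C1q genes over the 12 round spermatid arrays, Lyz2 correlated at 0.86, Cd163 at 0.84, Cd68 at 0.83, Ptprc at 0.73 and Cd74 at 0.44. Mrc1 correlated at -0.45 and the used Csf1r probe at -0.42. The second Csf1r probe correlated at 0.88 over the same arrays, so the probes of this gene disagreed in how they varied between arrays. In round spermatids the used probe read -1.82 to -1.16 on slide 1 and -0.80 to -0.46 on slide 2. The part of the slide in its correlation was not tested. Over the 10 pachytene arrays Mrc1 reached 0.63, the used Csf1r probe 0.38 and the second probe 0.41. In those arrays Ptprc was never well above background, and its value was -0.27.

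Single arrays carried much of this variation. Within round spermatids the mean deviation of the 9 tested genes was highest on the array of saline rat 16, at 0.87. It was lowest on that of saline rat 29, at -0.65. The mean of rat 16 includes its Cd68 level of 1.18, which stood apart from its group. On the array of rat 16 Sertoli, Leydig and peritubular myoid markers deviated by 0.45, 0.43 and 0.51, and on that of rat 29 by 0.11, -0.23 and -0.035. In pachytene spermatocytes the cyclophosphamide array labelled 16-2012 was lowest at -0.78, with -0.36, -0.45 and -0.055 for the same 3 lists. Round and late spermatid markers deviated by -0.28 and -0.38 on that array. Cyclophosphamide rat 15 was highest at 0.51, with 0.24, 0.29 and 0.33, and with 0.41 and 0.54 for round and late spermatid markers. Saline pachytene arrays stayed between -0.22 and 0.31. The part of these lists in the macrophage deviations was not tested.

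**Figure D5:**
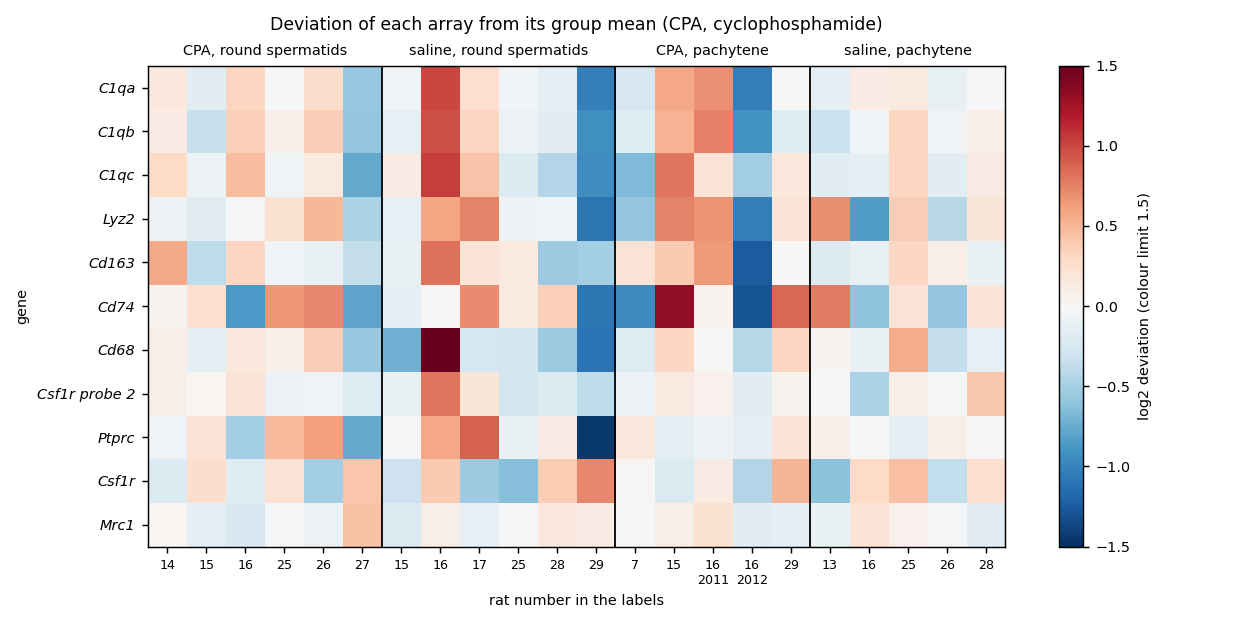
Deviation of each array (x axis, rat number within its group) from its group mean for the 10 genes and the second Csf1r probe (y axis), as log2 in colour, with the scale ending at 1.5. The C1q rows, Lyz2 and the second Csf1r probe are red on saline round spermatid rat 16 and blue on rat 29, while Mrc1 is pale on both and the used Csf1r probe is red on both.

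The genes whose deviations followed the mean of the macrophage genes most closely were sought among 11210 other named genes, over the same 22 arrays. They were Ctsb (0.92), Tyrobp (0.91), Clec10a (0.88), Ctss (0.88), Lgmn (0.87), Itgb5 (0.86), Laptm5 (0.86), Ccl2 (0.86), Appbp2 (0.84) and Ctsc (0.83). Over the 12 round spermatid arrays their correlations were 0.81 to 0.94. Of these 10, 7 were on the lists of macrophage-related genes, which were chosen with earlier results of these data known. Of the 40 most alike, 12 were. The lists held 94 genes tested between the cell types of saline rats. The median correlation of all 11210 genes was 0.02. Ctsb, Lgmn and Ctsc are lysosomal proteases, as is Ctss, and Tyrobp is the adaptor of Trem2. A like deviation did not go with a like difference between cell types. In saline rats Clec10a, Ctss and Ccl2 were higher in round spermatids by 3.27, 2.997 and 2.82 on the log2 scale. Ctsb differed by 0.48, Lgmn by -0.70, Itgb5 by -1.61 and Appbp2 by -1.75.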

How the data were processed

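The deposited scanner files hold each spot's processed signal as an intensity, background-subtracted but not scaled between arrays. The submitters' processing notes name Feature Extraction 11.5.1.1 and the file headers 10.7.3.1, and 19 of the 22 headers name a genome build. The authors' value table holds log2 values, which matched the scanner values quantile normalized and median-centred within each cell type (correlation with the own array 1, with others 0.58 or less, slopes about 1, column medians -0.0098 to 0.007). The authors' exact steps are not given in the sources used here, and it served as an alternative for treatment.

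Control spots and spots marked as outliers were left out of 58717 spots that are not controls, and 37 of 30367 probes lacked a usable spot. Spots of a probe were averaged as log2, the array's 75th percentile was subtracted, and a gene took its probe with the highest mean. RefSeq accessions were named through the GRCr8 gene table. Genes entered the test if over 0.5 of their spots were well above background in a compared group, with 1 array allowed to miss. Group means over 22 arrays were fitted with limma 3.58.1 in R 4.3.3, and the difference between 2 contrasts was tested in the same fit, at a Benjamini-Hochberg adjusted p of 0.05. This was tested on simulated data. Where no array of the dimmer group was well above background, a fold is a lower bound against the lowest signal well above background. The number of arrays limits the precision.

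The scanner files have no mean signal column, so the normexp alternative used median signals. Other alternatives were quantile or median scaling, other filters and probes, slide blocks, each array left out, and a replicate block by rat number. Same-numbered arrays of 1 treatment had correlated deviations of -0.10 to 0.38 across cell types. For 54 pairs with other numbers the range was -0.34 to 0.37. These values do not settle whether equal numbers name the same rat, and the main fit did not pair them. The labels do not say that arrays come from separate rats beyond their numbers, and p-values measure the spread between these samples. Named genes were the 10, of each other list the 3 with the largest cell type difference in saline rats, the 2 related genes with the smallest p per treatment comparison, and the 10 most alike. A few genes that this rule names are not reported here. The genes and lists were chosen with earlier results of these data known.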

Additional observations from a re-analysis of the deposited data

Results flagged for a closer look

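Cd68 in saline round spermatids was flagged because rat 16 lay far from the rest of its group, at 1.18 against -2.85 to -2.001 on the other 5 arrays. The gap was 0.79 of the group's range. It was the only one among 40 groups of values checked, of which chance marks about 1 in 20. Both spots of the gene were bright on that array, and the same array had the highest C1qa, C1qb and C1qc levels of any round spermatid array.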

How the results depend on the processing

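The counts of macrophage genes that passed between cell types were 9 in both treatments in the main setting, and 8 to 10 under every alternative run: 8 within slide 2 (Cd68 missed, with 1 pachytene array per treatment), 10 with no filter on dim probes (Ptprc added) and 9 to 10 with single arrays left out. With rat number as a replicate block it was 9 in both treatments, also over the saline rats with both fractions alone, and no call changed. Treatment and the difference between effects gave 0 under every alternative run. Some treatment values that never passed changed sign, and the cause was not tested. In round spermatids these were, within slide 1, Cd74 at -0.21, Cd68 at 0.20 and Cd163 at 0.057, and within slide 2 C1qb at -0.036. In pachytene spermatocytes, normexp background gave C1qc at 0.048 and Cd68 at 0.012. Within slide 1 C1qa was at 0.55, C1qb at 0.67, C1qc at 0.74, Cd68 at 0.19, Csf1r at 0.28 and Cd163 at 0.29, and within slide 3 C1qa was at 0.040, C1qb at 0.012 and Cd163 at 0.23. For the difference between effects, Cd163 was at -0.11 with normexp background, and within slide 1 C1qa was at -0.13, C1qb at -0.22, C1qc at -0.18, Cd68 at 0.0043 and Cd163 at -0.24. With single arrays left out, values in round spermatids ran from -0.16 to 0.23 for Cd74, -0.65 to 0.15 for Cd68, -0.24 to 0.039 for Cd163 and -0.0795 to 0.29 for Lyz2. In pachytene spermatocytes they ran from -0.35 to 0.077 for C1qa, -0.37 to 0.052 for C1qb, -0.17 to 0.062 for Cd68 and -0.46 to 0.0145 for Cd163. For the difference between effects they ran from -0.14 to 0.34 for Cd163 and -0.58 to 0.23 for Cd68. Probes not well above background limit Ptprc in both fractions and C1qc and Cd163 in cyclophosphamide pachytene spermatocytes.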
